A study of Mus musculus with 17 samples.

Results

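The 10 genes described here encode transcription factors that are studied in T cell exhaustion. They are Tox, Tox2, Nr4a1, Nr4a2, Nr4a3, Batf, Irf4, Nfatc1, Bhlhe40 and Ikzf2, and they were taken by symbol from the 24594 genes of the deposited count tables. No cut on a measured value was made, but the genes were chosen with earlier results of these data known. The series holds 17 RNA-seq libraries of splenic mouse CD8 T cells with the congenic marker Thy1.1. The labels name 4 groups by the targeted gene: Asxl1 KO, Dnmt3a KO and Tet2 KO with 4 libraries each, and Rosa KO, which served as the control, with 5. All groups share the tissue, the CD8 gate and Thy1.1, and the labels give no age, treatment or time. Asxl1 belongs to the Polycomb deubiquitinase complex, Dnmt3a methylates DNA de novo and Tet2 oxidises 5-methylcytosine, and all 3 are recurrently mutated in clonal hematopoiesis. Libraries are called by group and by the replicate number in their titles. Whether replicates were separate animals or cultures is not stated, and the p-values below therefore rest on the spread between libraries, part or all of which may be technical.

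The library numbers in the labels fall into 3 separated runs, which the labels do not call batches. Run 1 held Asxl1 KO 1, Dnmt3a KO 1 and 2 and Rosa KO 1. Run 2 held Asxl1 KO 2, Dnmt3a KO 3 and 4 and Tet2 KO 1 and 2, with no Rosa KO library. Run 3 held Asxl1 KO 3 and 4, Tet2 KO 3 and 4 and Rosa KO 2 to 5, with no Dnmt3a KO library. Total counts were 6625833 to 40701203 per library. The T cell genes Cd8a (641 to 1240 CPM) and Cd3e (1246 to 4966 CPM) were present in all 17 libraries. The targeted genes themselves did not pass in their own knockout against Rosa KO: Asxl1 differed by −0.13 ± 0.21 (adjusted p = 0.836), Dnmt3a by −0.06 ± 0.28 (0.978) and Tet2 by −0.26 ± 0.23 (0.734) in log2 fold change by edgeR, so these levels did not check the labels. Summed CPM of 15 B cell markers lay between 701 and 1464 in Asxl1 KO, 731 and 2540 in Dnmt3a KO, 176 and 2889 in Tet2 KO and 569 and 3286 in Rosa KO, and none of these markers was at 0 in any library. Asxl1 KO overlapped Rosa KO in this sum only through Rosa KO 1: in run 3 it was 741 and 701 in Asxl1 KO 3 and 4, 2889 and 2790 in Tet2 KO 3 and 4, and 2906 to 3286 in Rosa KO 2 to 5. Summed CPM of 23 immediate early and dissociation genes lay between 881 and 1935 in Asxl1 KO, 1326 and 1747 in Dnmt3a KO and 1143 and 2232 in Tet2 KO. The same sum was 1782 in Rosa KO 1 and 3613 to 3893 in Rosa KO 2 to 5, so the 4 Rosa KO libraries of run 3 stood above every other library.

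When an antigen receptor is engaged over a long time, calcium activates the phosphatase calcineurin, and calcineurin lets NFAT proteins such as NFATc1 enter the nucleus. NFAT that acts with little of its AP-1 partner is known to drive the genes of the NR4A nuclear receptors (Nr4a1, Nr4a2, Nr4a3) and of the high mobility group factors TOX and TOX2, which in turn are known to support the expression of inhibitory receptors. BATF, an AP-1 family member, binds DNA together with IRF4 at composite sites in activated T cells. BHLHE40 is a repressor known for roles in mitochondrial metabolism and cytokine production of activated T cells, and Ikzf2 encodes Helios, an Ikaros family factor best known from regulatory T cells.

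The NR4A genes are known as rapid-response genes of the antigen receptor. Their promoters are shown because these relatives share a feature that the choice of genes did not use. The sequences are the 300 bases from 250 before to 50 after the transcript start used in the RefSeq table (GRCm38.p6, 5′ to 3′ on the strand of the gene), at chr15:101266596-101266895 (+) for Nr4a1, chr2:57123954-57124253 (−) for Nr4a2 and chr4:48045055-48045354 (+) for Nr4a3. That start is the outer end of the gene for Nr4a2, but it lies 12944 bases inside the RefSeq gene for Nr4a1 (at 101266846) and 227 bases inside it for Nr4a3 (at 48045305), so these are windows at 1 of the genes' starts and not at the gene boundaries given further on. Capitals mark TGACG on either strand (written CGTCA on the other), a core of the cyclic AMP response element that CREB and ATF proteins are known to bind.
Nr4a1: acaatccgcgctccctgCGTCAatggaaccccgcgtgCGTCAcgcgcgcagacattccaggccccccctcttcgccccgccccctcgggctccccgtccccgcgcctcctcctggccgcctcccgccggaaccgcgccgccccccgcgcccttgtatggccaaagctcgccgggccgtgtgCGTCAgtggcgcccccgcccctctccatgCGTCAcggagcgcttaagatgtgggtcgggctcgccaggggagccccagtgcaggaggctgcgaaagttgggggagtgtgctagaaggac
Nr4a2: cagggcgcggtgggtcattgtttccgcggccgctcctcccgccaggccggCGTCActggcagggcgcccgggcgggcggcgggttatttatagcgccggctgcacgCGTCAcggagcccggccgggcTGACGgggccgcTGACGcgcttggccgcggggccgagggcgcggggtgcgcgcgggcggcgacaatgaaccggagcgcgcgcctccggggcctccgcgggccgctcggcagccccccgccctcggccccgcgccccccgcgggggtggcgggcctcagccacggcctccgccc
Nr4a3: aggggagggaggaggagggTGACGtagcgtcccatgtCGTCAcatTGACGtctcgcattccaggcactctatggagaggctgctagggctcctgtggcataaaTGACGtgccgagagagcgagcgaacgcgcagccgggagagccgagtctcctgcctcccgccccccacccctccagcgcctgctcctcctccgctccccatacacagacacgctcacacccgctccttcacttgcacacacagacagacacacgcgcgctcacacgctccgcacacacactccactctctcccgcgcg
Each of the 3 windows held 4 copies, all before the transcript start used. Of the 32851 promoter windows of the table, 20.8% held at least 1 copy and 0.231% held at least 4. The 7 windows of Tox2, Batf and Irf4 held at most 1. Tox, Bhlhe40, Ikzf2 and Nfatc1 had no entry. This motif was chosen for display after the matches of 9 searched motifs had been seen. The full cyclic AMP response element TGACGTCA was in none of the 6 genes' windows, those of the NR4A genes included (1.79% of all windows). The AP-1 motif TGANTCA and the E-box CACGTG were in none of the 6 genes' windows either (7.81% and 7.15% of all windows). The NFAT core GGAAA was in those of Tox2, Nr4a2, Batf and Irf4 (61.3% of all windows). A match describes letters and not a bound site, and a missing match says only that these letters are not in this window.

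Levels of different genes were compared per kilobase of merged exon, as CPM per kb. In Rosa KO the order was Bhlhe40 (137 ± 21.0), Tox (80.8 ± 39.1), Batf (70.6 ± 13.2), Nr4a2 (45.1 ± 5.30), Nfatc1 (38.8 ± 12.1), Irf4 (28.7 ± 8.65), Nr4a1 (9.78 ± 4.02), Tox2 (3.48 ± 2.78), Ikzf2 (2.94 ± 1.60) and Nr4a3 (2.41 ± 1.10; SD, n = 5 for all). Neighbours in this order overlapped over the libraries except at 1 step: the lowest Irf4 library was at 22 and the highest Nr4a1 library at 14.8 CPM per kb. That step set Bhlhe40, Tox, Batf, Nr4a2, Nfatc1 and Irf4 above Nr4a1, Tox2, Ikzf2 and Nr4a3. All 10 genes passed the filter on low counts and entered the test.

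**Figure D1:**
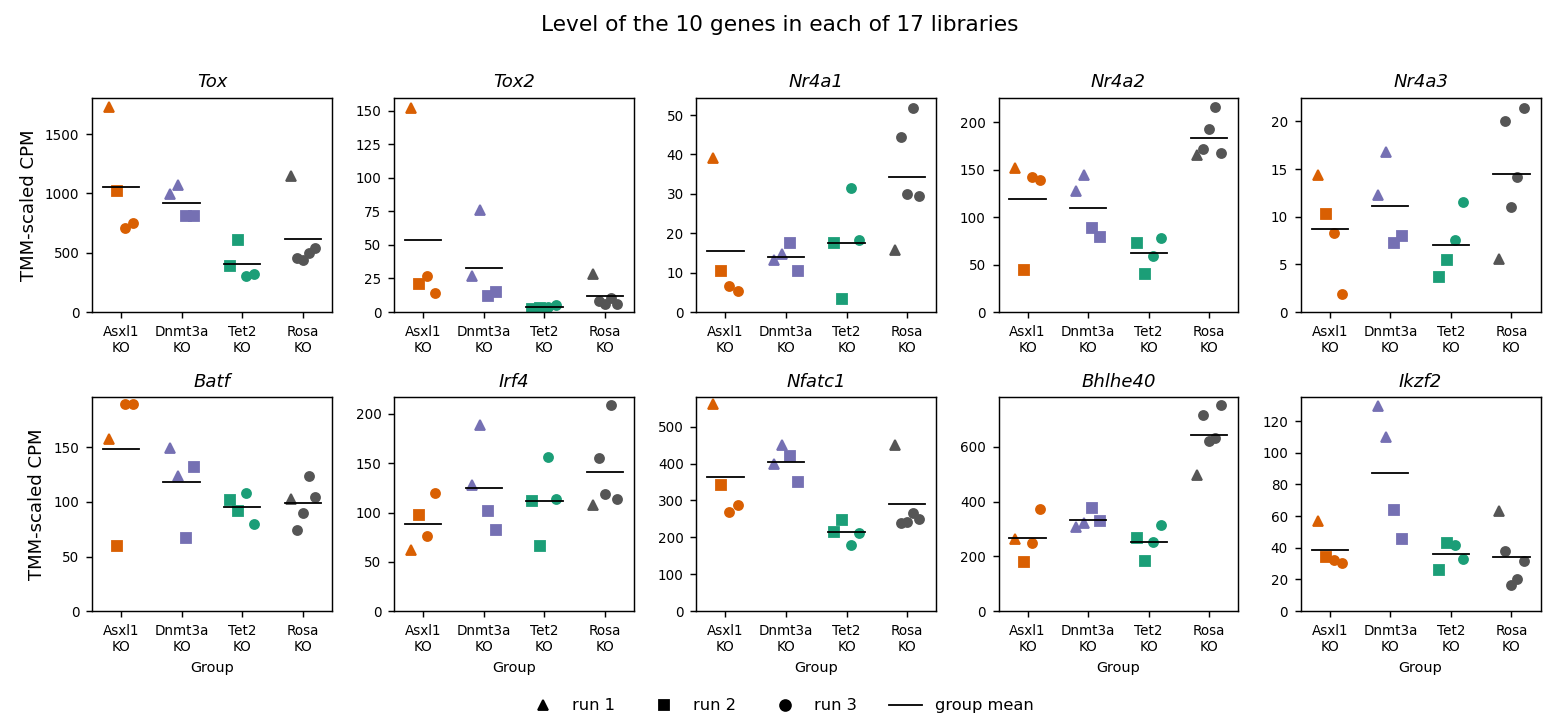
TMM-scaled CPM of the 10 genes in every library, by group from Asxl1 KO, Dnmt3a KO and Tet2 KO to Rosa KO, with the run marked by the shape of the point and the group mean as a bar. Bhlhe40 was higher in all 5 Rosa KO libraries (498 CPM or more) than in any knockout library (376 CPM or less), while Tox, Tox2 and Nfatc1 in Rosa KO were highest in the 1 library of run 1.

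Tested with edgeR over all 17 libraries, with group and run as terms, 3 of the 10 genes passed (adjusted p under 0.05 over the 13881 genes tested) in Asxl1 KO against Rosa KO: Tox and Tox2 rose and Bhlhe40 fell. Of all genes tested, 1.64% were called in that comparison, 0.814% higher and 0.821% lower. In Tet2 KO against Rosa KO 3 of the 10 passed, all lower (Tox, Nr4a2 and Bhlhe40), against 1.47% of all genes called, 0.483% lower. In Dnmt3a KO against Rosa KO 0 of the 10 passed by edgeR and 0 by DESeq2, against 0.216% and 1.08% of all genes called. An unadjusted edgeR p under 0.05 was found for 3 of the 10, against 1115 of all 13881 genes tested. The median log2 fold change of the 10 was −0.16 in Asxl1 KO, 0.05 in Dnmt3a KO and −0.72 in Tet2 KO, beside 0.00, 0.00 and −0.02 over all genes tested. These 3 comparisons share the Rosa KO libraries.

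Tox, whose product is a DNA-binding protein required for exhausted T cells to persist, lies on chromosome 4 (6686353 to 6991557, minus strand). It had 1731, 1024, 705 and 751 CPM in Asxl1 KO 1 to 4, and 993, 1068, 811 and 812 CPM in Dnmt3a KO 1 to 4. It had 384, 603, 304 and 321 CPM in Tet2 KO 1 to 4, and 1142, 456, 437, 501 and 538 CPM in Rosa KO 1 to 5. Within a run the groups were apart where these ranges overlapped: in run 3, both Asxl1 KO libraries lay above and both Tet2 KO libraries below the 4 Rosa KO libraries, and in run 1 the Asxl1 KO library lay above the Rosa KO one. Tox rose in Asxl1 KO by 0.56 ± 0.14 (SE) on the log2 scale, or 1.47-fold (edgeR, adjusted p = 0.0349), and fell in Tet2 KO by 0.65 ± 0.15, or 1.56-fold (0.0249). Within run 3 alone the values were 0.59 (0.0105) in Asxl1 KO and −0.62 (0.0156) in Tet2 KO. In Dnmt3a KO the log2 fold change was −0.01 ± 0.16 (0.992), with a 95% confidence interval from −0.34 to 0.32. Within run 1, the Dnmt3a KO libraries (993 and 1068 CPM) lay just below the single Rosa KO library (1142 CPM).

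A list of T cell markers, which includes Cd8a and Cd8b1, moved with Tox in Asxl1 KO. Of 11 tested, 5 rose there by edgeR (Lat, Cd3g, Cd3d, Zap70 and Cd6, but not Cd8a or Cd8b1) and 6 by DESeq2. Of all genes tested, 0.814% were called higher there by edgeR, and 4.78% were called in either direction by DESeq2. The median log2 fold change of the 11 was 0.50. In run 3 their summed CPM was 8127 and 8483 in Asxl1 KO 3 and 4, against 5062 to 5886 in Rosa KO 2 to 5. In run 1 it was 12345 in Asxl1 KO 1, against 7765 in Rosa KO 1. Asxl1 KO 2, from run 2, had 4819, below all 5 Rosa KO libraries. In Tet2 KO 1 of the 11 rose by edgeR, against 1.47% of all genes called, with a median of 0.09. The sum was 5420 and 5041 in Tet2 KO 3 and 4. The B cell markers were low beside the Rosa KO libraries of run 3 only for Asxl1 KO 3 and 4. For Asxl1 KO 1 their sum (1082) was higher than that of Rosa KO 1 (569). The part of the T cell and B cell markers in the Tox value was not tested beyond the covariate below.

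The 2 Tox calls were close to the threshold. The Asxl1 KO call was lost in 9 of the 17 fits that each left out 1 library: without Asxl1 KO 1 (0.51, edgeR adjusted p = 0.056), 3 (0.57, 0.113) or 4 (0.52, 0.114), Dnmt3a KO 2 (0.55, 0.0512), Tet2 KO 3 (0.55, 0.0587) or Rosa KO 1 (0.57, 0.0637), 2 (0.53, 0.0645), 3 (0.52, 0.0758) or 4 (0.57, 0.0578). The Tet2 KO call was lost without Tet2 KO 3 (−0.65, 0.19) or 4 (−0.69, 0.0933) and without Rosa KO 1 (−0.63, 0.0515), 4 (−0.64, 0.0605) or 5 (−0.61, 0.0742). Without the run term both were lost (0.78, adjusted p = 0.368 in Asxl1 KO, and −0.61, 0.929 in Tet2 KO). Without both Asxl1 KO 3 and 4 the Asxl1 KO value was 0.51 (0.291). With a covariate of the B cell markers the Asxl1 KO call was lost (0.48, adjusted p = 0.0692) and the Tet2 KO call held (−0.67, 0.00864). With a covariate of the immediate early genes, added after the data had been seen, the Asxl1 KO value was 0.42 (0.236) and the Tet2 KO value −0.71 (0.0177). The counting rules are not given, and 260 bases of Tox exons lie antisense to exons of Gm11802, whose reads could not be told apart if strand was not used.

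Tox2, a close relative of Tox known to act beside it in exhausted cells, lies on chromosome 2 (163203058 to 163324172, plus strand). It had 152, 20.6, 26.7 and 14.3 CPM in Asxl1 KO 1 to 4, and 26.7, 76.2, 12.3 and 14.7 CPM in Dnmt3a KO 1 to 4. It had 2.42, 3.21, 3.77 and 5.12 CPM in Tet2 KO 1 to 4, and 28.4, 8.46, 6.04, 10.3 and 5.89 CPM in Rosa KO 1 to 5. Every Tet2 KO library was below every Rosa KO library, and Asxl1 KO 1 was the highest of all 17. Foxp3, the lineage gene of regulatory T cells, was also highest in Asxl1 KO 1, at 26.2 CPM. The part of such cells in the Tox2 values was not tested. Tox2 rose in Asxl1 KO by 1.75 ± 0.37 on the log2 scale, or 3.37-fold (edgeR, adjusted p = 0.0118). The call was lost without Asxl1 KO 1 (1.49, 0.056) or 3 (1.71, 0.086), and the value was 1.41 (0.147) within run 3. It was also lost with no run term (2.17, 0.249), with the replicate block (1.57, 0.156) and with the immediate early covariate (1.72, 0.0798), and held with the B cell covariate (1.76, 0.0219). In Tet2 KO Tox2 had a log2 fold change of −0.95 ± 0.39 (0.291), and in Dnmt3a KO of 0.90 ± 0.44 (0.621). Neither passed, although the Tet2 KO and Rosa KO libraries did not overlap. Groups without overlap were found for 3 of the 10 genes in Tet2 KO, all lower (Tox2, Nr4a2 and Bhlhe40), against 1.58% of all genes. Nr4a2 and Bhlhe40 were also lower without overlap in Asxl1 KO (2 of the 10, against 1.4% of all genes) and in Dnmt3a KO (2 of the 10, against 2.01%). RNA per cell and the share of cells that express a gene cannot be told apart in these bulk libraries, for Tox2 or any other gene here.

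**Figure D2:**
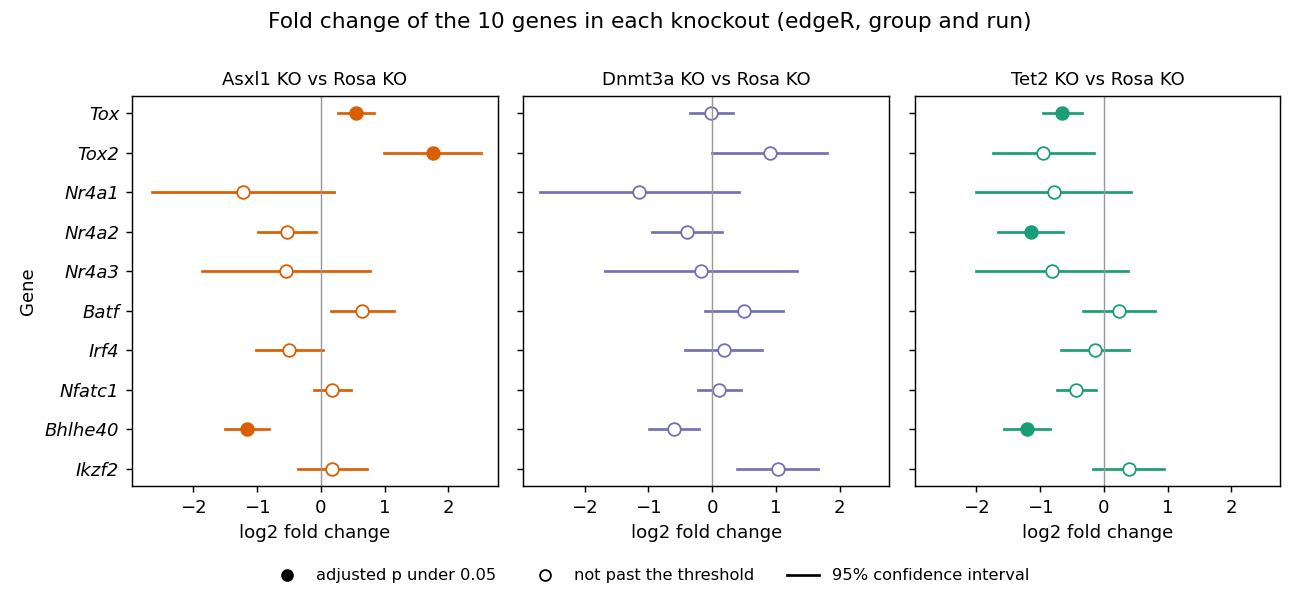
Log2 fold changes of the 10 genes in Asxl1 KO, Dnmt3a KO and Tet2 KO against Rosa KO (edgeR, group and run as terms), with 95% confidence intervals as bars. Filled points passed at an adjusted p under 0.05: Tox (0.56), Tox2 (1.75) and Bhlhe40 (−1.15) in Asxl1 KO, and Tox (−0.65), Nr4a2 (−1.15) and Bhlhe40 (−1.20) in Tet2 KO.

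Among the NR4A genes, Nr4a2 was the most abundant per kilobase. It lies on chromosome 2 (57106830 to 57124003, minus strand). Nr4a2 had 152, 43.8, 143 and 139.6 CPM in Asxl1 KO 1 to 4, and 128, 144, 88.8 and 79.3 CPM in Dnmt3a KO 1 to 4. It had 72.5, 40.1, 59.0 and 78.1 CPM in Tet2 KO 1 to 4, and 166, 172, 192, 216 and 168 CPM in Rosa KO 1 to 5. All 12 knockout libraries were below all 5 Rosa KO libraries, and Tet2 KO had the lowest mean. Nr4a2 fell in Tet2 KO by 1.15 ± 0.25 on the log2 scale, or 2.21-fold (edgeR, adjusted p = 0.0201), and within run 3 the value was −1.45 (0.000213). It did not pass in Asxl1 KO (−0.53 ± 0.22, 0.232) or in Dnmt3a KO (−0.40 ± 0.27, 0.751). The Tet2 KO call was lost without Tet2 KO 3 (−0.92, 0.263), Tet2 KO 4 (−1.11, 0.13) or Rosa KO 4 (−1.08, 0.0565).

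Nr4a1 (Nur77), often used as a reporter of recent antigen receptor signals, lies on chromosome 15 (101253902 to 101274795, plus strand). It had 39.0, 10.5, 6.64 and 5.43 CPM in Asxl1 KO 1 to 4, and 13.2, 14.6, 17.6 and 10.5 CPM in Dnmt3a KO 1 to 4. It had 17.4, 3.26, 31.4 and 18.3 CPM in Tet2 KO 1 to 4, and 15.8, 44.5, 30.0, 51.8 and 29.5 CPM in Rosa KO 1 to 5. The 4 Rosa KO libraries of run 3 were among the highest, the Rosa KO library of run 1 was not, and Asxl1 KO 1 lay within their range. No comparison with Rosa KO passed over all libraries: the log2 fold change was −1.22 ± 0.69 (edgeR, adjusted p = 0.408) in Asxl1 KO, −1.14 ± 0.75 (0.749) in Dnmt3a KO and −0.78 ± 0.58 (0.668) in Tet2 KO. The runs went opposite ways in Asxl1 KO, with −2.69 (0.000717) within run 3 and 1.29 within run 1, where each group had 1 library.

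Nr4a3, on chromosome 4 (48045078 to 48086447, plus strand), had the lowest level per kilobase of the family in Rosa KO. Its level was 14.4, 10.3, 8.31 and 1.87 CPM in Asxl1 KO, 12.2, 16.8, 7.21 and 8.02 CPM in Dnmt3a KO, 3.66, 5.43, 7.60 and 11.6 CPM in Tet2 KO, and 5.53, 20.1, 11.0, 14.2 and 21.5 CPM in Rosa KO. The ranges overlapped throughout, and the log2 fold changes were −0.54 ± 0.64 (edgeR, adjusted p = 0.755) in Asxl1 KO, −0.17 ± 0.73 (0.976) in Dnmt3a KO and −0.81 ± 0.58 (0.648) in Tet2 KO. The 95% interval in Tet2 KO ran from −2.01 to 0.38, and a fall of the size seen for Nr4a2 lies within it.

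The Rosa KO libraries of run 3, which stood apart in the summed immediate early genes, also held the highest Nr4a2 values. With the mean of those 23 genes as a covariate, the Nr4a1 value in Asxl1 KO was 0.07 (edgeR, adjusted p = 0.986) and the Nr4a2 value −0.04 (0.971). In Tet2 KO, Nr4a2 remained lower with that covariate (−0.96, 0.0257). Of the 23 immediate early genes, 1 rose in Asxl1 KO (Ier3, 2.49 ± 0.45, 0.00335) and 3 fell (Klf6, −1.29 ± 0.26, 0.0112, Ier5, −0.96 ± 0.22, 0.0263, and Cd69, −0.91 ± 0.23, 0.0441). Of all genes tested, 0.814% rose and 0.821% fell in Asxl1 KO. By edgeR 0 of the 23 passed in Dnmt3a KO and 0 in Tet2 KO, against 0.216% and 1.47% of all genes. In each, 6 were at an unadjusted p under 0.05, against 1115 and 1692 of all 13881 genes. DESeq2 called 1 lower in each, against 1.08% and 2.94% of all genes called in either direction.

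**Figure D3:**
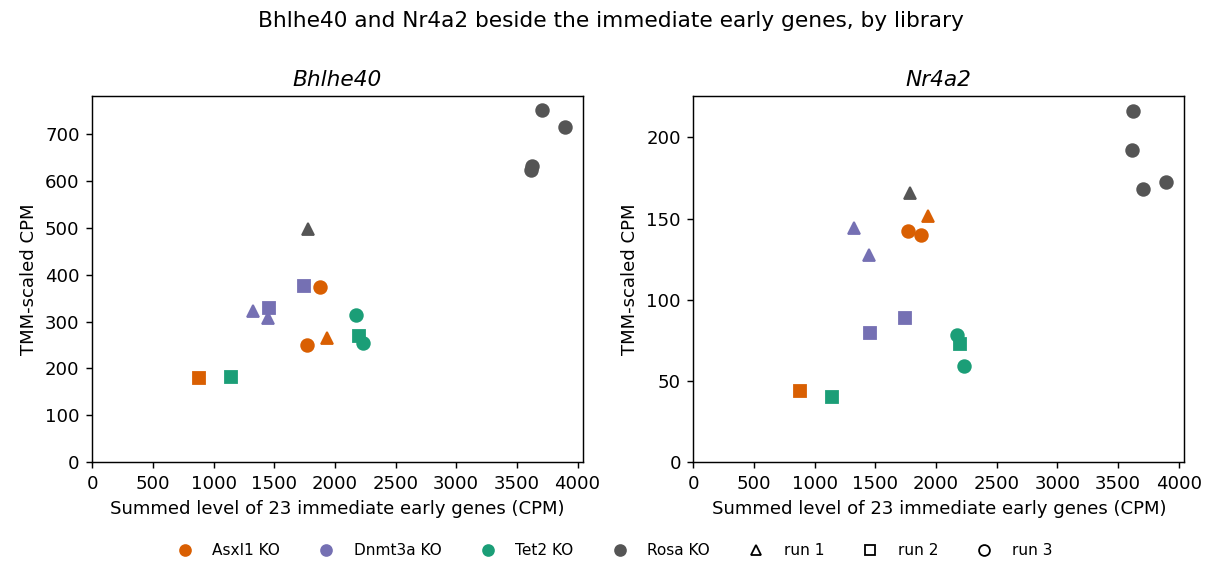
Summed CPM of the 23 immediate early and dissociation genes (horizontal) against the TMM-scaled CPM of Bhlhe40 and Nr4a2 (vertical) in the 17 libraries, coloured by group and shaped by run. The 4 Rosa KO libraries of run 3 lie to the right at 3613 to 3893, apart from Rosa KO 1 at 1782 and the knockouts at 881 to 2232, and the Bhlhe40 level of Rosa KO 1 (498 CPM) is still above every knockout library.

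Bhlhe40 was lower in every knockout library than in any Rosa KO library. It lies on chromosome 6 (108660629 to 108666925, plus strand). It had 265, 180.3, 249 and 374 CPM in Asxl1 KO 1 to 4, and 309, 323, 376 and 328 CPM in Dnmt3a KO 1 to 4. It had 269, 182, 254 and 313 CPM in Tet2 KO 1 to 4, and 498, 717, 623, 633 and 753 CPM in Rosa KO 1 to 5. The highest knockout library was Dnmt3a KO 3 and the lowest Rosa KO library was that of run 1. Bhlhe40 fell in Asxl1 KO by 1.15 ± 0.16 on the log2 scale, or 2.22-fold (edgeR, adjusted p = 0.00022), and in Tet2 KO by 1.20 ± 0.18, or 2.30-fold (0.00044). Both calls held in all 17 fits that left out 1 library (adjusted p at most 0.00471 in Asxl1 KO and 0.0116 in Tet2 KO). In Dnmt3a KO the value was −0.60 ± 0.19 (0.311), with an interval from −0.99 to −0.20, and it did not pass over all genes.

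Within run 3 the Bhlhe40 values were −1.13 (edgeR, adjusted p = 0.000398) in Asxl1 KO and −1.26 (0.000276) in Tet2 KO. Within run 1, where Asxl1 KO and Rosa KO had 1 library each and the spread comes from the 2 Dnmt3a KO libraries alone, the value in Asxl1 KO was −0.92, which is given with no call. With the immediate early covariate they were −0.83 (0.0256) in Asxl1 KO and −1.09 (0.000716) in Tet2 KO. With a covariate of the B cell markers they were −1.11 (0.000662) and −1.20 (0.000458) in the same order of groups. Bhlhe40 exons share 118 bases with the antisense gene 0610040F04Rik.

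Nfatc1, the NFAT family member that is itself induced by NFAT, lies on chromosome 18 (80606205 to 80713071, minus strand). It had 560.4, 341, 269 and 287 CPM in Asxl1 KO 1 to 4, and 399, 451, 422 and 349 CPM in Dnmt3a KO 1 to 4. It had 214, 246, 181 and 213 CPM in Tet2 KO 1 to 4, and 450.0, 239, 242, 267 and 249.9 CPM in Rosa KO 1 to 5. The highest library of Asxl1 KO, Dnmt3a KO and Rosa KO was in each case one of run 1, and 3 of the 4 Tet2 KO libraries lay below all of Rosa KO. Nfatc1 did not pass against Rosa KO: its log2 fold change was 0.18 ± 0.14 (edgeR, adjusted p = 0.569) in Asxl1 KO, 0.11 ± 0.16 (0.921) in Dnmt3a KO and −0.43 ± 0.15 (0.18) in Tet2 KO.

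Batf, on chromosome 12 (85686720 to 85709087, plus strand), had 157, 59.7, 189 and 189 CPM in Asxl1 KO 1 to 4, and 149, 123.7, 66.9 and 132.2 CPM in Dnmt3a KO 1 to 4. It had 102, 91.5, 108 and 79.4 CPM in Tet2 KO 1 to 4, and 103, 74.2, 90.1, 124.2 and 105 CPM in Rosa KO 1 to 5. In Asxl1 KO 3 libraries lay above all of Rosa KO, and Asxl1 KO 2 lay below. Batf did not pass in Asxl1 KO (0.65 ± 0.24, edgeR adjusted p = 0.17), Dnmt3a KO (0.50 ± 0.29, 0.705) or Tet2 KO (0.24 ± 0.27, 0.817). It passed in Asxl1 KO without Asxl1 KO 2 (0.83, 0.0338) and within run 3 (0.95, 0.0103).

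Irf4, the DNA-binding partner of BATF, lies on chromosome 13 (30749233 to 30766981, plus strand). Its level was 62.1, 97.0, 75.9 and 119.8 CPM in Asxl1 KO, 128, 189, 102 and 81.9 CPM in Dnmt3a KO, 112, 66.5, 156 and 113 CPM in Tet2 KO, and 108, 155, 119, 209 and 114 CPM in Rosa KO. All groups overlapped. The log2 fold changes were −0.49 ± 0.25 (edgeR, adjusted p = 0.352) in Asxl1 KO, 0.18 ± 0.30 (0.935) in Dnmt3a KO and −0.13 ± 0.26 (0.91) in Tet2 KO. B cells and plasma cells also express Irf4, and with the B cell covariate the Asxl1 KO value was −0.33 (0.55).

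Ikzf2, on chromosome 1 (69531207 to 69687351, minus strand), stood at 129, 110.1, 64.2 and 45.3 CPM in the 4 Dnmt3a KO libraries, against 63.6, 38.3, 16.5, 20.3 and 31.9 CPM in Rosa KO 1 to 5. Its level was 56.9, 34.4, 32.6 and 30.2 CPM in Asxl1 KO 1 to 4 and 26.2, 42.8, 41.6 and 32.7 CPM in Tet2 KO 1 to 4. The 2 Dnmt3a KO libraries of run 1 were the highest of all 17, and Dnmt3a KO overlapped Rosa KO only through Rosa KO 1. The log2 fold change in Dnmt3a KO was 1.03 ± 0.31 (edgeR, adjusted p = 0.246), with an interval from 0.39 to 1.66, and did not pass. It was 0.18 ± 0.26 (0.806) in Asxl1 KO and 0.39 ± 0.27 (0.639) in Tet2 KO. Helios is abundant in regulatory T cells: the lineage gene Foxp3 ranged from 1.12 to 6.84 CPM in Dnmt3a KO and 0.0373 to 2.79 CPM in Rosa KO, and Cd4 from 52.8 to 99.5 CPM in Dnmt3a KO and 2.87 to 28.1 CPM in Rosa KO. The summed CPM of all 12 CD4 and regulatory T cell markers was 262 to 303 in Dnmt3a KO and 175 to 309 in Rosa KO. Across the 17 libraries Foxp3 was highest in Asxl1 KO 1 (26.2 CPM), where Ikzf2 was at 56.9 CPM. The part of CD4 and regulatory T cells in the Ikzf2 values was not tested. Ikzf2 exons share 144 bases with the antisense gene Gm29114.

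The direct comparison of knockouts bears on which knockouts differ from each other. In Asxl1 KO against Tet2 KO 2 of the 10 genes passed, both higher, against 0.562% of all genes called, 0.447% higher: Tox by 1.20 ± 0.15, or 2.30-fold (edgeR, adjusted p = 2.46e-05), and Tox2 by 2.70 ± 0.40, or 6.49-fold (0.000471). Both kept the call in all 17 fits that left out 1 library. Their libraries did not overlap, nor did those of Nfatc1 (0.61 ± 0.15, 0.0531), so that 3 of the 10 were higher without overlap, against 2.46% of all genes. Within run 3, Tox2 was at 2.20 (0.164) and did not pass. Nr4a2 was at 0.62 ± 0.24 (0.499) and passed without Asxl1 KO 2 (0.96, 0.0449). Bhlhe40 did not pass between these 2 knockouts (0.05 ± 0.17, 0.982), with an interval from −0.30 to 0.40.

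In Dnmt3a KO against Tet2 KO 0 of the 10 genes passed by edgeR, against 0.0937% of all genes called, and 2 by DESeq2 (Tox and Tox2). An unadjusted edgeR p under 0.05 was found for 6 of the 10, against 778 of all 13881 genes tested. Tox2 was at 1.85 ± 0.42 (edgeR, adjusted p = 0.115) and passed without Dnmt3a KO 1 (2.09, 0.0376), and Tox was at 0.63 ± 0.15 (0.163). Groups did not overlap for 5 of the 10 (Tox, Tox2, Nr4a2, Nfatc1 and Ikzf2, all higher in Dnmt3a KO), against 2.84% of all genes. In Asxl1 KO against Dnmt3a KO 0 passed by edgeR, against 0.353% of all genes called, and 1 (Tox) by DESeq2. An unadjusted edgeR p under 0.05 was found for 5 of the 10, against 1525 of all 13881 genes tested. Tox was at 0.57 ± 0.15 (edgeR, adjusted p = 0.116) and passed without Asxl1 KO 2 (0.65, 0.0404). Bhlhe40 was at −0.55 ± 0.18 (0.247) and Ikzf2 at −0.84 ± 0.29 (0.267).

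Several of the genes also differed between runs. In run 1 against run 3, with group in the fit, 4 of the 10 passed, all higher, against 13.5% of all genes called, 7.76% higher: Tox (1.17 ± 0.13, edgeR adjusted p = 2.14e-06), Tox2 (2.10 ± 0.35, 0.000214), Nfatc1 (0.78 ± 0.14, 0.000366) and Ikzf2 (1.08 ± 0.26, 0.00582, and 0.96, 0.0801 without Rosa KO 1). In run 2 against run 3, 2 of the 10 passed, against 12.1% of all genes called, 5.57% higher and 6.49% lower: Tox was higher (0.67 ± 0.13, 0.00136) and Nr4a2 lower (−0.77 ± 0.23, 0.0254). That Nr4a2 call was lost without any 1 of 7 libraries: Asxl1 KO 2 (−0.45, edgeR adjusted p = 0.203), 3 (−0.73, 0.0539) or 4 (−0.73, 0.0517), Dnmt3a KO 2 (−0.73, 0.0537), Tet2 KO 2 (−0.67, 0.0974) or 4 (−0.80, 0.0573) and Rosa KO 1 (−0.68, 0.0648). Run alone accounted for 60.2% of the variance of log2 CPM of Tox, 68.4% for Nfatc1 and 65% for Ikzf2, against 30.5% for Bhlhe40, and group alone for 60.9%, 57.4%, 51.5% and 82.7% in the same gene order. With Rosa KO missing from run 2 and Dnmt3a KO from run 3, run and group are partly confounded, and the within-run values above come from libraries of a single run.

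**Figure D4:**
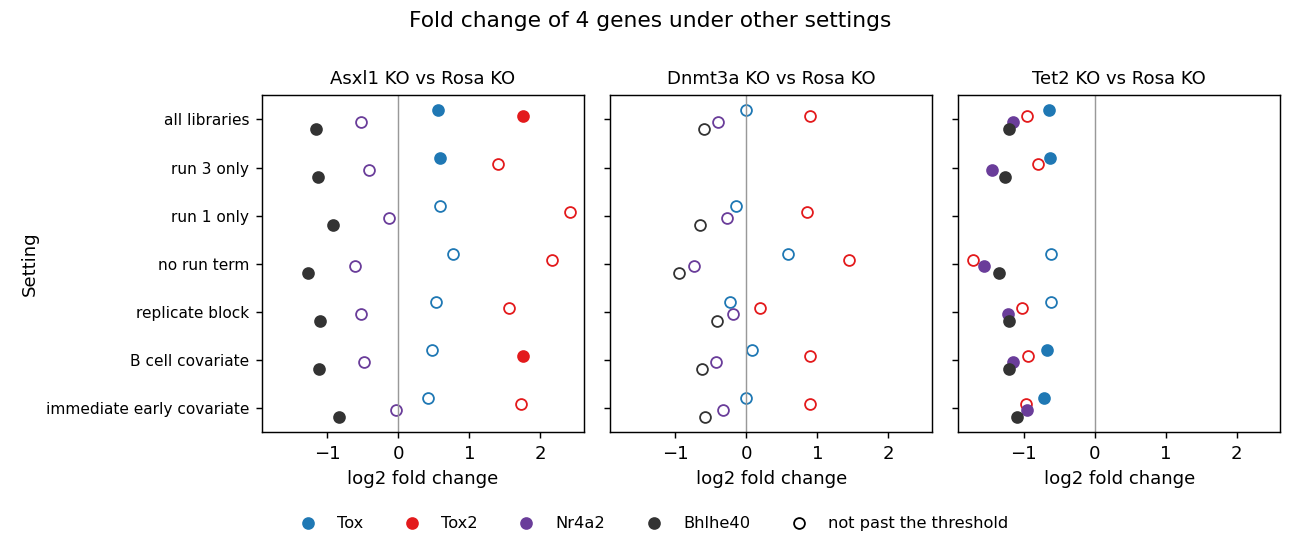
Log2 fold changes (horizontal) of Tox, Tox2, Nr4a2 and Bhlhe40 in Asxl1 KO, Dnmt3a KO and Tet2 KO against Rosa KO, for all libraries with group and run as terms and for other settings of the fit (vertical), with filled points where the gene passed. Bhlhe40 in Asxl1 KO and Tet2 KO is below 0 in each setting shown, and filled in each setting with more than 1 library a group. The fill of the run 1 points in Asxl1 KO is not read as a call, since Asxl1 KO and Rosa KO had 1 library each there. Tox is above 0 in Asxl1 KO and below 0 in Tet2 KO but open in several settings. Runs without libraries of both groups have no points.

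The wider pathway was described with lists of genes. Over all 13881 genes tested, edgeR called 1.64% in Asxl1 KO, 0.216% in Dnmt3a KO and 1.47% in Tet2 KO. DESeq2 called 4.78%, 1.08% and 2.94% in the same order. An unadjusted edgeR p under 0.05 was found for 2181, 1115 and 1692 of all genes, again in this order. Among 22 tested genes of NFAT and calcineurin signalling, 0 passed by edgeR in Asxl1 KO and 0 in Dnmt3a KO (5 and 1 at an unadjusted p under 0.05, and 2 lower and 0 by DESeq2). The medians of the log2 fold change were −0.23 in Asxl1 KO and −0.13 in Dnmt3a KO, beside 0.00 and 0.00 over all genes. Of 21 AP-1, BATF and IRF partners, 0 passed by edgeR in any knockout (7, 1 and 1 at an unadjusted p under 0.05 in Asxl1 KO, Dnmt3a KO and Tet2 KO, and 3 lower, 0 and 0 by DESeq2), with medians of −0.84, −0.15 and −0.36 in the same order of knockouts. Of 13 relatives of the 10 genes, 0 passed by edgeR (2, 0 and 1 at an unadjusted p under 0.05, and 0, 0 and 1 lower by DESeq2).

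The counts of the lists that follow stand beside the same shares of all genes called. By edgeR these were 1.64% in Asxl1 KO, 0.216% in Dnmt3a KO and 1.47% in Tet2 KO, and by DESeq2 4.78%, 1.08% and 2.94%. Of 27 genes induced by NFAT or the antigen receptor, by edgeR 2 rose and 1 fell in Asxl1 KO, 0 rose and 1 fell in Dnmt3a KO, and 1 rose and 2 fell in Tet2 KO. By DESeq2 3 were higher and 1 lower in Asxl1 KO, 2 higher and 2 lower in Dnmt3a KO, and 1 higher and 3 lower in Tet2 KO. Tnfrsf9, the costimulatory receptor 4-1BB, rose in Asxl1 KO (2.63 ± 0.30, edgeR adjusted p = 1.18e-05), and the chemokine gene Xcl1 rose in Asxl1 KO (2.27 ± 0.39, 0.00199) and Tet2 KO (2.22 ± 0.42, 0.00538). In Dnmt3a KO Xcl1 was at 1.91 ± 0.46 (0.104) and Tnfrsf9 at 1.36 ± 0.34 (0.118), and neither passed by edgeR. Rgs1, a regulator of G protein signalling, fell in Dnmt3a KO (−1.55 ± 0.20, 0.000421) and Tet2 KO (−1.18 ± 0.19, 0.000852), and Rgs16 fell in Tet2 KO (−1.43 ± 0.29, 0.0104). Of 20 inhibitory receptors and exhaustion markers, 4 rose in Asxl1 KO: Cd7 (1.71 ± 0.21, 3.26e-05), Lag3 (1.27 ± 0.20, 0.000593), Eomes (1.15 ± 0.19, 0.00128) and Pdcd1 (0.97 ± 0.18, 0.00429). Of the same 20, 2 fell in Tet2 KO, the ectonucleotidase gene Entpd1 (−1.40 ± 0.16, 5.9e-05) and Cd244a (−1.42 ± 0.32, 0.0223), and in Dnmt3a KO Entpd1 fell (−0.90 ± 0.18, 0.021). Pdcd1 (−0.12 ± 0.20, edgeR adjusted p = 0.887) and Lag3 (−0.29 ± 0.21, 0.639) did not pass in Tet2 KO. Whether any of these changes depends on Tox or Tox2 was not tested. By DESeq2 5 of the 20 were higher in Asxl1 KO, 1 was lower in Dnmt3a KO, and 1 was higher and 3 were lower in Tet2 KO, where Eomes was at 0.79 ± 0.21 (edgeR, adjusted p = 0.054).

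Of 16 stem-like and memory factors, 2 rose and 1 fell in Asxl1 KO, 1 rose in Dnmt3a KO and 4 rose in Tet2 KO. Tcf7, the factor that marks stem-like cells, rose in Asxl1 KO (1.94 ± 0.26, edgeR adjusted p = 8.63e-05), Dnmt3a KO (1.79 ± 0.31, 0.0051) and Tet2 KO (1.95 ± 0.27, 0.000268). Lef1 fell in Asxl1 KO (−1.11 ± 0.29, edgeR adjusted p = 0.0484), where the median log2 fold change of the 16 was −0.07. Summed CPM of the 16 was 866 and 811 in Asxl1 KO 3 and 4, against 1162 to 1245 in Rosa KO 2 to 5. In run 1 this sum was 2151 in Asxl1 KO 1, against 1034 in Rosa KO 1. Of 10 effector factors, 3 fell in Asxl1 KO, 1 in Dnmt3a KO and 1 in Tet2 KO, with Zeb2, a zinc finger factor of terminal effector T cells, among them each time (−2.27 ± 0.21, 4.5e-07 in Asxl1 KO, −1.69 ± 0.23, 0.000421 in Dnmt3a KO, and −1.67 ± 0.22, 0.00011 in Tet2 KO).

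The genes most like each of the 10 were found by Pearson's r of log2 CPM over the 17 libraries, among 9681 genes, as a description. These points share runs and groups. For Tox they were Cblb (0.902), an E3 ubiquitin ligase gene, and Phactr2 (0.889), and for Tox2 they were Tnfrsf1b (0.930) and the transcription factor gene Maf (0.928). Nfatc1 was most like Cmip (0.946) and Prex1 (0.913), and Ikzf2 most like Sema4d (0.892) and Ubqln1 (0.891). Nr4a1 was most like Serpinb1a (0.913) and Lgmn (0.875), Nr4a2 like Klrb1b (0.905) and Xbp1 (0.878), and Nr4a3 like Cerk (0.783) and Nbn (0.751). Batf was most like Sdf4 (0.849) and Rras (0.797), Irf4 like Serp1 (0.851) and Hikeshi (0.821), and Bhlhe40 like Btg1 (0.853) and the integrin gene Itgam (0.838).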

How the data were processed

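The authors deposited 1 table of raw counts per gene for each of the 17 libraries, for 24594 genes. STAR 2.5.3a, DESeq2 1.26.0 and the build mm10 appear in the submitters' processing notes with no role. How reads were counted, on which annotation and whether by strand is not given in the sources used here; the labels' protocols name a stranded total RNA kit. Genes were tested with edgeR 4.0.16 (R 4.3.3) after TMM scaling of the counts (robust quasi-likelihood F test, group and run as terms, 11 residual degrees of freedom). The filter filterByExpr left 13881 genes, over which Benjamini-Hochberg adjustment was made, with a threshold of 0.05. CPM are TMM-scaled, and the standard error is the log2 fold change divided by the square root of F. The common biological coefficient of variation was 0.604. Exon lengths are from GENCODE vM21, and coordinates and promoters from RefSeq (GRCm38.p6). The edgeR step was tested on simulated data that held no run effect, so this did not check the run term. The 28 pairs of libraries of a group differed beyond sampling noise. The 10 genes and all lists were chosen with earlier results of these data known. For each list up to 4 passing genes of smallest adjusted p were named (all 5 for the T cell markers in Asxl1 KO), and for each of the 10 genes the 2 most correlated genes of at least 5 CPM. Alternatives were DESeq2 1.42.0, RLE scaling, no filter, no run term, a replicate block, a B cell covariate, single runs, the 2 groups alone and each library left out. The covariate of immediate early genes and the removal of Asxl1 KO 3 and 4 together were chosen after seeing the data. The result of the NFAT and calcineurin list in Tet2 KO is not reported here.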

Additional observations from a re-analysis of the deposited data

Results flagged for a closer look

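In 40 sets of 1 gene in 1 group, 4 had a library far from the others, and chance gives about 1 in 20 such sets. The gap to the nearest library over the range of the group was 0.784 for Tox (Rosa KO 1 highest) and 0.827 for Nfatc1 (Rosa KO 1 highest, at 450.0 CPM), the single Rosa KO library of run 1. It was 0.932 for Nr4a2 (Asxl1 KO 2 lowest, at 43.8 CPM) and 0.839 for Batf (Asxl1 KO 2 lowest, at 59.7 CPM), the single Asxl1 KO library of run 2.

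The effects of Asxl1 KO and Tet2 KO, each against Rosa KO, differed by 1.20 in log2 fold change for Tox and by 2.70 for Tox2, and the edgeR test of each difference passed.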

How the results depend on the processing

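Bhlhe40 kept its fall in Asxl1 KO and Tet2 KO under every alternative run, leaving aside run 1, where Asxl1 KO and Rosa KO had 1 library each and the spread came from Dnmt3a KO alone. Of the 10 genes, 3 passed in Asxl1 KO against Rosa KO, and 1 did with no run term, with the replicate block, within run 1 or with the immediate early covariate, and 2 with the B cell covariate or without Asxl1 KO 3 and 4, where Tox lost its call (1 to 4 with 1 library left out). In Tet2 KO 1 to 3 passed with 1 library left out, and in Dnmt3a KO 0 throughout. Between knockouts the counts were 0 for Asxl1 KO against Dnmt3a KO (1 by DESeq2 or with no filter, 2 within run 1, 0 to 1 with a library left out), 2 for Asxl1 KO against Tet2 KO (1 with no run term, 0 within run 2, 2 to 3 with a library left out) and 0 for Dnmt3a KO against Tet2 KO (2 by DESeq2 or with no filter, 0 to 1 with a library left out). In run 1 against run 3 the count was 4 (1 with the replicate block, 3 to 5 with a library left out). In run 2 against run 3 it was 2 (1 with the block, with the B cell covariate or without Asxl1 KO 3 and 4, 0 with the immediate early covariate, 1 to 3 with a library left out).

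As a percent of the genes tested, 1.64% passed in Asxl1 KO (227 genes), beside 0.166% with no run term (23), 4.78% by DESeq2 (664), 2.68% with no filter (568), 0.367% with the replicate block (51), 4.42% within run 3 (614), 4.44% within run 1 (607), 0.63% without Asxl1 KO 3 and 4 (93), and 0.563 to 2.61% with a library left out (80 to 373). In Dnmt3a KO 0.216% passed (30), beside 0.137% with no run term (19), 1.08% by DESeq2 (150), 0.59% with no filter, 0 with the block and 0.147 to 0.49% with a library left out (21 to 70). In Tet2 KO 1.47% passed (204), beside 0.166% (23), 2.94% (408), 1.78% (378) and 0.375% (52) under the same 4 settings, 2.9% within run 3 (403) and 0.23 to 2.53% with a library left out (33 to 363). Replicate numbers did not pair the libraries: 2 of 24 same-numbered pairs correlated above 0.1, over a range from −0.206 to 0.163.

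Values that changed sign had not passed in the main edgeR fit, although Nr4a1 and Batf in Asxl1 KO, for example, passed within run 3. In Asxl1 KO they were Nr4a1 (1.29 within run 1, 0.52 without Asxl1 KO 3 and 4, 0.066 with the immediate early covariate), Nr4a3 (1.37 and 0.89 in the first 2 of these, −1.19 to 0.16 with a library left out), Batf (−0.010 without Asxl1 KO 3 and 4) and Ikzf2 (−0.16 within run 1, −0.12 with the immediate early covariate). In Dnmt3a KO they were Tox (0.58 with no run term, 0.0037 with no filter, 0.078 with the B cell covariate, −0.086 to 0.071 with a library left out), Nr4a3 (0.22 with the block, 1.40 within run 1 or with the 2 groups alone, 0.70 without Asxl1 KO 3 and 4, −1.03 to 0.28 with a library left out), Irf4 (−0.17 with no run term, −0.070 to 0.34 with a library left out) and Nfatc1 (−0.12 with the block, −0.078 within run 1, −0.079 with the 2 groups alone). In Tet2 KO they were Batf (−0.058 with no run term, −0.066 within run 3, −0.076 with the 2 groups alone) and Irf4 (−0.29 to 0.038 with a library left out). Between knockouts, within run 2, Irf4 was at 0.094 in Asxl1 KO against Dnmt3a KO, and Nr4a2 at −0.33 and Bhlhe40 at −0.29 in Asxl1 KO against Tet2 KO, where Bhlhe40 was also at −0.046 with the 2 groups alone and −0.079 to 0.21 with a library left out. The cause of these changes was not tested. Nr4a1 and Nr4a3 had the largest standard errors.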
